A study of Mus musculus with 6 samples.

Results

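The 45 genes described here encode the proteins of the large (60S) subunit of the cytoplasmic ribosome. They were taken by gene symbol from a deposited table of 27506 genes, as the genes named *Rpl* or *Rplp* on a list of the subunit's proteins. All 45 were in the table and all 45 passed the filter on low counts. Each member was counted in 3 ways, as its own count, as the sum with the 117 entries that carry a member's symbol followed by -ps and a number, and as the sum with the 304 genes that share at least 20 stretches of 75 bases with a member. The libraries were made from dental pulp of the mandibular first molar of C57BL/6 mice at P3.5 (postnatal day 3.5). Controls were *Ror2*fl/fl (3 libraries), and mutants were *Osr2-Cre;Ror2*fl/fl (3 libraries), bred by mating *Osr2-Cre;Ror2*fl/+ males to females homozygous for the floxed allele. By these genotypes all 6 libraries carry floxed *Ror2*, and the groups differ in the Cre transgene. This transgene acts in the dental mesenchyme and alveolar bone and spares the dental epithelium. The labels of the controls carry the letters WW or OW, and those of the mutant libraries carry OR. The sources do not say what these letters mean, and whether they mark a further difference was not tested. *Ror2* encodes a receptor for Wnt ligands, and the comparison asked how its loss from the mesenchyme changed gene expression at the start of root formation. The sources do not say how many animals gave each library, so p-values measure the spread between these libraries.

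The ribosome translates mRNA into protein. In its large subunit an rRNA core joins amino acids, and the proteins around it stabilize the rRNA, line the tunnel through which the new chain leaves, bind translation factors at a flexible stalk and join the subunits. Each protein is normally present in 1 copy, except the stalk proteins, and growing cells make all of them in matched amounts, partly through a pyrimidine-rich start of their mRNAs that responds to growth signals. Ribosomal protein mRNAs have been copied back into the mouse genome very often, and these processed pseudogenes keep long stretches of the coding sequence.

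The libraries held 56134770 to 62628940 estimated counts. *Ror2* itself was 38.2, 36.2 and 36.7 CPM (counts scaled to library size by the TMM method) in controls and 27.9, 28.1 and 26.3 CPM in mutant libraries, a log2 fold change of -0.43 ± 0.08 (SE; adjusted p = 0.0134). Adjusted p-values throughout are Benjamini-Hochberg values over all genes tested, from the quasi-likelihood test of edgeR. Although labelled dental pulp, the libraries held much RNA of enamel epithelium, with *Amelx*, the main enamel matrix gene, at 9.15% to 9.97% of counts in controls and 12.6% to 15.1% in mutant libraries. The summed level of 10 epithelial markers was 172511 to 192528 CPM against 185887 to 256163 CPM, and none of the 10 was called. The 13 odontoblast and mesenchyme markers summed to 21632 to 61656 CPM against 18763 to 48212 CPM, with 1 higher and 1 lower. Erythroid markers (784 to 1331 against 245 to 942 CPM, 2 of 7 lower) and skeletal muscle markers (9.52 to 33.2 against 2.97 to 3.22 CPM, 5 of 6 lower) were lower in mutant libraries. Among the remaining cell types, 2 of 5 Schwann cell markers were higher, 1 of 5 leukocyte markers was lower, and none of 5 endothelial or 4 bone markers was called. The part of these cell types in the results below was not tested. The transcript CT010467.1, annotated as rRNA, took 1.17% to 9.41% of counts, most in mutant library 2. In bulk tissue, fewer cells of a type and less RNA per cell cannot be told apart.

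Shared sequence bears on every value below, so examples of it are given first. In 1 transcript per gene, a median of 89.6% of the 75-base stretches of the coding sequence also occurred in a transcript of another gene, from 0% in *Rpl8* to 100% in 16 members. A read of 75 bases from such a stretch fits both places equally well. *Rpl38* (chr11:114668524-114672331, plus strand, mm10) and the processed pseudogene *Rpl38-ps2* shared all 136 stretches of the *Rpl38* coding sequence, and the stretch below lies in the exon of the pseudogene at chr6:140747031-140747105 on the minus strand. *Rpl36a* (chrX:134585654-134588062, plus strand) has the same relation to *Rpl36a-ps2*, shown at chr3:145879141-145879215 on the plus strand. *Rpl27a* (chr7:109519147-109522367, plus strand) has it to *Gm7536*, a processed pseudogene shown at chr3:24333252-24333326 on the plus strand. For *Rpl41* (chr10:128548114-128549305, minus strand) the sequence printed is its entire coding sequence without the stop codon, found unchanged in *Gm10076*, annotated as a lincRNA, at chr14:105681869-105681943 on the plus strand. Each of these 4 sequences is identical in the member and the copy, so no base is in capitals.
*Rpl38*, coding bases 68 to 142, and *Rpl38-ps2*: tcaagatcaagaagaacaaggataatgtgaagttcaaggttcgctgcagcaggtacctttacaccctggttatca
*Rpl36a*, coding bases 122 to 196, and *Rpl36a-ps2*: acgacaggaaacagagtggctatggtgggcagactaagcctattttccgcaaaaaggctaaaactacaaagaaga
*Rpl27a*, coding bases 185 to 259, and *Gm7536*: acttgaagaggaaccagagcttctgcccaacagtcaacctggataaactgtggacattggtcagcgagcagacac
*Rpl41*, coding bases 1 to 75, and *Gm10076*: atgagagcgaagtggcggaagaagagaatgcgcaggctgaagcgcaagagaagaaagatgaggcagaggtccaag

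*Rpl37* (chr15:5116645-5119140, plus strand) and *Rpl37rt*, a transcribed processed pseudogene at chr5:115103236-115103310 on the minus strand, show a stretch that tells the places apart by 1 base. The pair shared 174 of the 217 coding stretches of *Rpl37*. In the stretch below the difference is G38A, with positions counted from the first base printed and the differing base in capitals.
*Rpl37*, coding bases 212 to 286: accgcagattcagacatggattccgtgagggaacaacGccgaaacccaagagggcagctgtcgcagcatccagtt
*Rpl37rt*: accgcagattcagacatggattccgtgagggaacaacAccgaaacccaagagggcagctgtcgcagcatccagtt

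Starts of the members were searched for a pyrimidine run. RefSeq promoter windows (build GRCm38.p6) were found for 34 of the 45 members. The letters CTTTC or CTTTT, read on the mRNA strand within 25 bases of the annotated start, were in 15 of the 34 members (44.1%) and in 13.2% of all 27025 genes with a window. The letters CCGGAAG, on either strand of the whole window, were in 14 of the 34 members (41.2%) and in 9.93% of all genes. These are matches of letters and not mapped sites. The windows of 5 members are printed from 40 bases before to 20 bases after the annotated start, with CTTTC and CTTTT near the start in capitals. They lie at chr7:141447611-141447670 (*Rplp2*, plus strand), chr2:39005112-39005171 (*Rpl35*, minus strand), chr11:114668540-114668599 (*Rpl38*, plus strand), chr7:4792925-4792984 (*Rpl28*, plus strand) and chr7:109519155-109519214 (*Rpl27a*, plus strand). The own counts of the first 4 were higher in mutant libraries and that of *Rpl27a* was lower. Of the 15 members with the letters, 8 were higher, 1 was lower and 6 were not called in own counts. Of the 19 without them, 7 were higher, 3 lower and 9 not called. Of all genes tested, 10.4% were called higher and 9.84% lower. Whether the letters relate to the changes was not tested.
*Rplp2*: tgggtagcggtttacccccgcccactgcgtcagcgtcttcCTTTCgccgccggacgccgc
*Rpl35*: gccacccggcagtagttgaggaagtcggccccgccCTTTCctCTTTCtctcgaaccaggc
*Rpl38*: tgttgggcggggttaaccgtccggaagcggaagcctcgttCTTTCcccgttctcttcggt
*Rpl28*: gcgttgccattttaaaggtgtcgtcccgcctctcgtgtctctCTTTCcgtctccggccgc
*Rpl27a*: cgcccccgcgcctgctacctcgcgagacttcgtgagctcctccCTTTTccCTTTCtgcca

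In their own counts, the 60S genes changed in both directions and by very different amounts. Of the 45 members, 20 were higher and 6 were lower in mutant libraries (adjusted p under 0.05), where 10.4% and 9.84% of the 19330 genes tested were called higher and lower. The groups did not overlap in 29 members, 23 of them higher, and in 44.7% of all genes tested. The median log2 fold change of the members was 0.30, against 0.01 over all genes tested, and the values ran from -1.41 (*Rpl27a*) to 3.14 (*Rpl36a*) with an SD of 0.87. By role, 3 of the 4 stalk genes, 1 of the 2 genes of the 5S RNA particle, 3 of the 5 genes near the catalytic center and tRNA sites, 3 of the 9 at the exit tunnel and 10 of the 22 on the solvent side or elsewhere were higher, and none of the 3 at the subunit interface was. Lower were 1 of the 3 at the interface, 1 of the 9 at the exit tunnel and 4 of the 22 on the solvent side or elsewhere. Without control library 2 or control library 3, 12 and 11 members were higher and 3 were lower, when 4.57% and 4.39% of all genes were called in either direction. Without mutant library 1, 18 were higher and 3 lower, when 12.2% were called.

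The sums drew the members together. With the copies named after them, 17 members were higher and 4 lower, where 10.3% and 9.79% of the 19273 genes tested were called, and the SD of the log2 fold changes fell to 0.53. With all genes sharing sequence, 19 members were higher and none was lower, where 10% and 9.7% of the 19179 genes tested (19.8% in all) were called. At an unadjusted p under 0.05, 30 members were higher and none lower. More genes pass that looser threshold, and the share of all genes passing it is not given here. For the same sums, DESeq2 called 26 higher and none lower (adjusted p under 0.05), and 24.8% of all genes in either direction. The log2 fold changes then ran from -0.18 (*Rpl36*) to 1.25 (*Rplp1*), with a median of 0.36 and an SD of 0.30, and 41 of the 45 were above 0. The groups did not overlap in 34 members, 32 of them higher, against 44.6% of all genes tested. The number of members that differed by more than 2-fold was 12 in own counts and 1, *Rplp1*, with all genes sharing sequence. Between own counts and these sums, 12 members were called higher in both, 8 lost a call of higher (*Rpl3*, *Rpl6*, *Rpl10*, *Rpl13*, *Rpl27*, *Rpl28*, *Rpl34* and *Rpl36*), 4 turned from lower to higher (*Rpl17*, *Rpl23*, *Rpl27a* and *Rpl37*), 3 gained a call (*Rpl5*, *Rpl19* and *Rpl41*) and 2 lost a call of lower (*Rpl21* and *Rpl37a*). *Rpl30* was called higher in the sum with named copies but not in the others, and the remaining 15 were called at no level. Without control library 2 the number called higher was 2 (*Rplp1* and *Rpl41*) and without control library 3 it was 1 (*Rplp1*), when 4.02% and 3.93% of all genes were called. In both cases 40 members were above 0, with median log2 fold changes of 0.30 and 0.34.

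**Figure D1:**
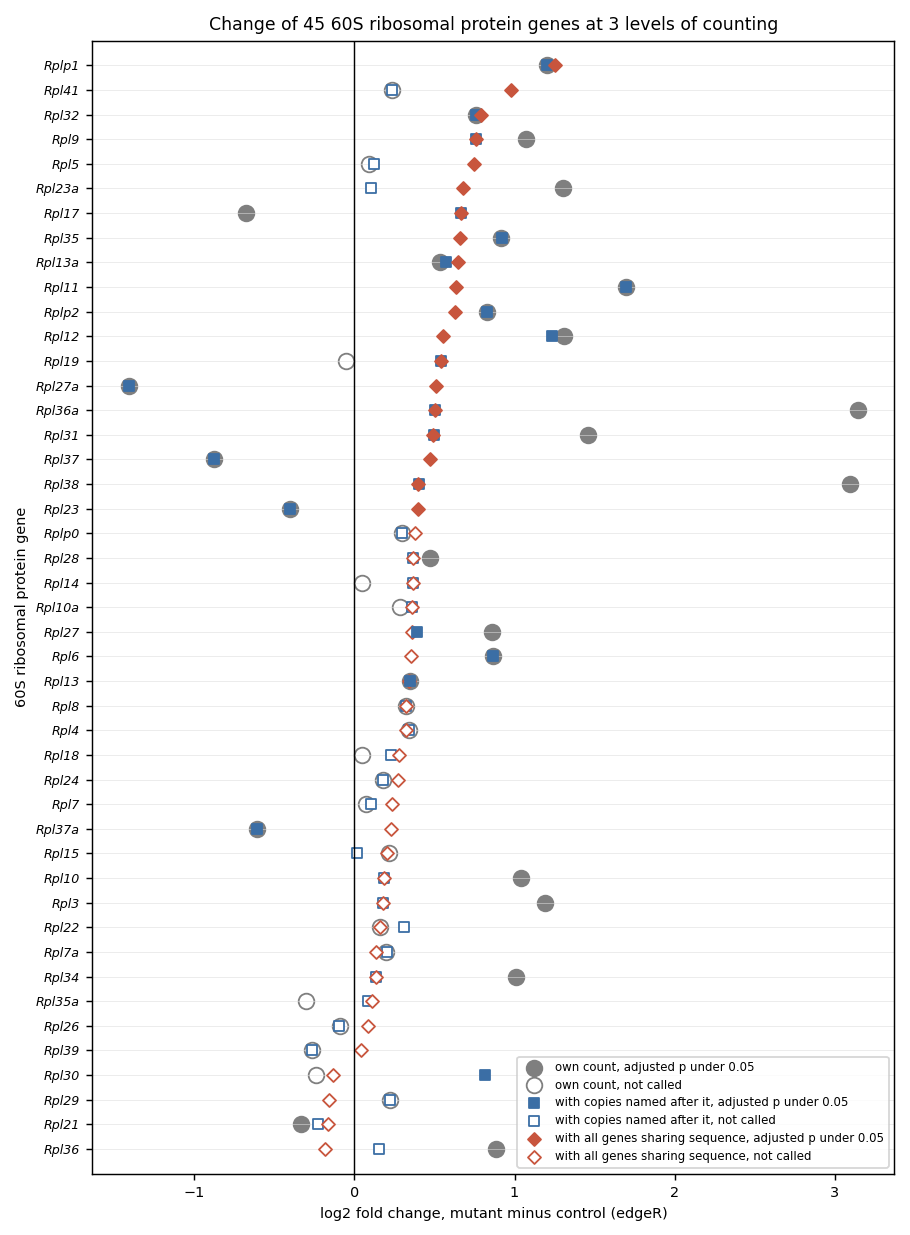
Log2 fold change (horizontal axis, mutant minus control, from edgeR) of each of the 45 members (vertical axis, ordered by the sum with all genes sharing sequence), as own count (gray circles), with the copies named after it (blue squares) and with all genes sharing sequence (red diamonds). Filled symbols have an adjusted p under 0.05; own counts spread from -1.41 to 3.14, and the red diamonds from -0.18 to 1.25.

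The largest rises in own counts belonged to members whose copies held most of the family's counts, which was so in most members. The own count was under 50% of the family in 33 of the 43 members with such copies in controls, and in 33 in mutant libraries. *Rpl36a*, a protein near the tRNA exit site, was 1.27, 0.96 and 1.18 CPM in controls and 9.36, 11.1 and 9.84 CPM in mutant libraries. All 3 of the latter were above all controls, at 8.85 times the control level (log2 fold change 3.14 ± 0.17, adjusted p = 3.29e-05). Its own count was 0.70% to 0.81% of the family in controls and 4.71% to 5.0% in mutant libraries, and the family as a whole differed by 0.50 ± 0.11 on the log2 scale (adjusted p = 0.0187). Its copies went opposite ways, since *Rpl36a-ps2* was higher by 0.76 (adjusted p = 0.00382) and *Rpl36a-ps1*, annotated as protein coding, fell by 1.29 on that scale (adjusted p = 0.000493).

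*Rpl38*, which mice need in normal amount for skeletal patterning, was 2.63, 1.95 and 2.10 CPM in controls and 18.8, 20.7 and 17.5 CPM in mutant libraries. The groups were far apart (3.09 ± 0.15, adjusted p = 2.37e-05). Its pseudogene *Rpl38-ps2*, which shares the printed stretch, was 94.0, 77.5 and 80.0 CPM against 92.9, 102 and 88.6 CPM, and here the groups overlapped (adjusted p = 0.27). The share of the family in the *Rpl38* count itself was 2.45% to 2.72% in controls and 16.5% to 16.8% in mutant libraries. The whole family was 0.40 ± 0.11 higher on the log2 scale (adjusted p = 0.0406). *Rpl31*, at the tunnel exit where factors that guide new chains dock, was 11.2, 9.74 and 10.8 CPM against 27, 31.2 and 29.1 CPM. Its own count was higher by 1.46 ± 0.11 on the log2 scale (adjusted p = 0.000158), and its family, most of which was *Rpl31-ps8*, was higher by 0.49 ± 0.12 (adjusted p = 0.0246).

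Of the 4 largest falls in own counts, those of *Rpl27a*, *Rpl37* and *Rpl17* turned into rises once all genes sharing sequence were added, and that of *Rpl37a* lost its call. *Rpl27a*, on the solvent side, was 94.2, 81.1 and 85.0 CPM in controls and 30.3, 36.1 and 31.7 CPM in mutant libraries. This was 62.3% lower (log2 fold change -1.41 ± 0.11, adjusted p = 0.000171). *Gm7536*, identical to it in the printed stretch, was 416, 344 and 365 CPM against 579, 665 and 631 CPM, with no overlap. The family was 511, 425 and 450 CPM against 610, 703 and 664 CPM, higher by 0.51 ± 0.12 on the log2 scale (adjusted p = 0.0263). *Gm7536* does not carry the name of *Rpl27a*, so that the sum with named copies kept the fall of -1.41.

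*Rpl37*, a zinc-binding protein of the subunit, was 64.0, 54.5 and 54.9 CPM in controls and 31.5, 32.8 and 30.1 CPM in mutant libraries. It was lower by 45.6% (-0.88 ± 0.10, adjusted p = 0.00141), and *Rpl37rt*, which differs from it by the base shown, was 115, 99.8 and 109 CPM against 195, 207 and 195 CPM. Together they were higher by 0.47 ± 0.10 on the log2 scale (adjusted p = 0.0191). *Rpl17*, at the tunnel exit, had an own count of 3.90, 4.52 and 4.28 CPM against 2.43, 2.85 and 2.65 CPM. That own count fell (-0.68 ± 0.16, adjusted p = 0.0226), but it was at most 1.12% of the family in any library, and the family rose by 0.67 ± 0.16 (adjusted p = 0.0265). *Rpl37a*, another zinc-binding protein, was 71.0, 55.8 and 56.9 CPM against 38.5, 42.2 and 39.8 CPM. Its own count fell by 0.61 ± 0.11 (adjusted p = 0.0119), whereas the family, mostly *Gm4149*, differed by 0.23 ± 0.12 (adjusted p = 0.18) with overlapping groups.

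**Figure D2:**
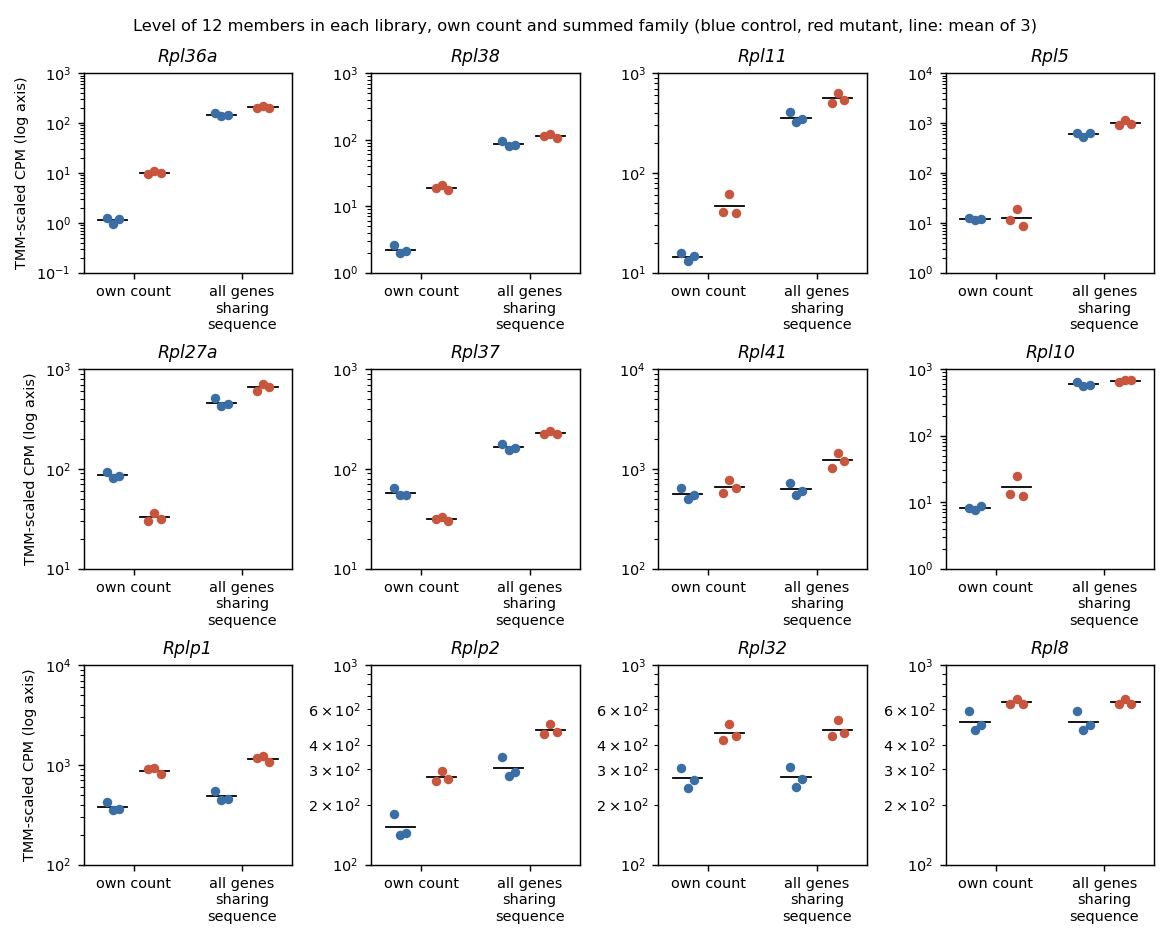
TMM-scaled CPM (vertical, log axis) of 12 members in each of the 6 libraries (blue, control; red, mutant; line, mean of 3), as own count and with all genes sharing sequence. In *Rpl27a* and *Rpl37* the red points lie under the blue ones for the own count and above them for the sum, and in *Rplp1* and *Rpl32* they lie above in both.

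Across the 43 members with at least 1 gene sharing sequence, the split of counts between member and copies often differed between the groups. The own count's share of the family did not overlap between the groups in 36 of the 43 members, and was higher in mutant libraries in 18 and lower in 18. With the copies named after them, it did not overlap in 25 of 32 members, 12 higher and 13 lower. No such share was computed for other genes. In level, the groups did not overlap in 44.6% of all genes tested. The own count held under 10% of the family in 12 members in controls and in 13 in mutant libraries, with median shares of 22.6% and 21.1%. Among the 206 copies with at least 10 counts, 157 were tested, and 64 were higher and 21 lower (54.1% called, against 20.2% of all genes tested). Of the 206, 195 were annotated as processed pseudogenes. *Rpl35a-ps2*, *Rpl35a-ps3*, *Rpl35a-ps4* and *Rpl35a-ps6* had the same level in every library, so the copies tested are not all separate measurements. How the counting placed reads that fit several genes is not given in the sources used here, and the sources give no sequencing run for either group, so that a change in the transcription of a copy and a difference in the placing of reads cannot be told apart. Over the 45 members, the size of the own-count change and the share of a gene's stretches found elsewhere had a Pearson r of 0.12 and a Spearman rho of 0.12, a description over genes that share the same 6 libraries.

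**Figure D3:**
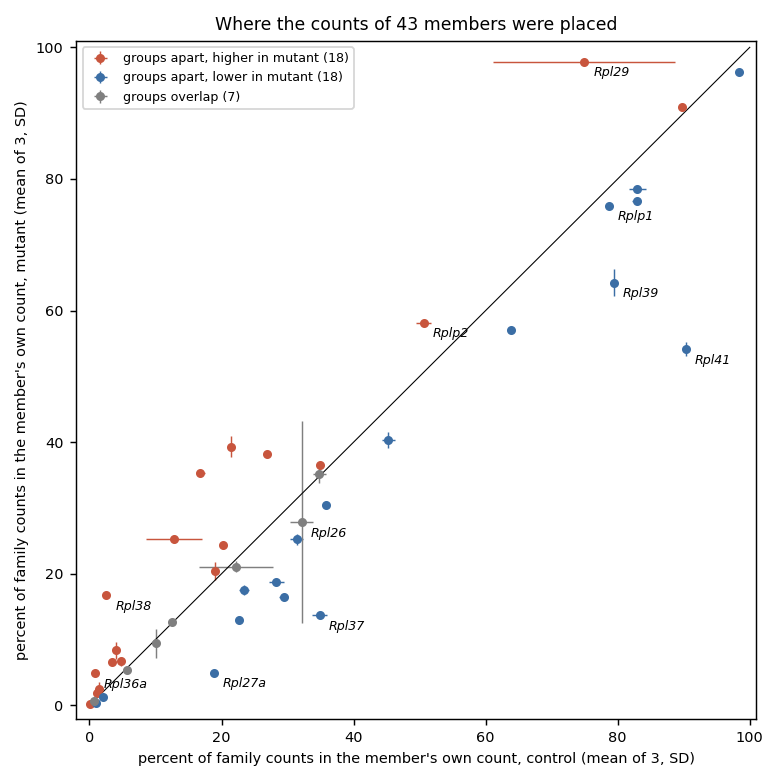
Percent of a family's counts (the member with all genes sharing its sequence) that lay in the member's own count, control mean (horizontal) against mutant mean (vertical), for 43 members with SD bars (n = 3 libraries). Points off the diagonal with short bars are members whose split differed between groups, such as *Rpl41* and *Rpl27a* below it and *Rpl38* above it; *Rpl26* and *Rpl29* have long bars because 1 library stood apart.

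The stalk gene *Rplp1* had the largest change of all members with all genes sharing sequence, and nearly the same change in its own count. The stalk is the flexible arm that recruits elongation factors, formed by the base protein Rplp0 and pairs of Rplp1 and Rplp2, with Rpl12 beside it. *Rplp1* was 428, 352 and 361 CPM in controls and 903, 924 and 801 CPM in mutant libraries. The groups were well apart, at 2.30 times the control level (1.20 ± 0.13, adjusted p = 0.00121). With *Gm10073* (116, 96.2 and 96.7 against 280, 290 and 261 CPM) and its other copies, the change was 1.25 ± 0.13 (adjusted p = 0.00114). *Rplp2* was 179, 141 and 144 CPM against 263, 295 and 268 CPM. It was higher by 0.83 ± 0.13 (adjusted p = 0.00541), and by 0.63 ± 0.13 with *Wdr89*, a protein-coding gene that shares sequence with it (adjusted p = 0.0146). *Rplp0* was 1406, 1114 and 1202 CPM against 1421, 1674 and 1482 CPM. Its groups barely parted, and its change of 0.30 ± 0.14 did not pass the test (adjusted p = 0.16), nor did 0.38 ± 0.15 with its copies (adjusted p = 0.0953). *Rpl12* had own counts of 4.20, 4.72 and 4.35 CPM against 8.55, 15.8 and 8.58 CPM, highest in mutant library 2. It rose by 1.31 ± 0.25 in own counts (adjusted p = 0.0117) and by 0.55 ± 0.13 with its copies (adjusted p = 0.0248), of which *Gm10275* held nearly all counts.

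*Rpl5* and *Rpl11* encode the proteins that carry 5S rRNA into the subunit and, outside the ribosome, bind Mdm2 and thereby stabilize p53. *Rpl11* was 15.6, 13.1 and 14.7 CPM in controls and 40.5, 60.9 and 39.6 CPM in mutant libraries. The own count was higher by 1.70 ± 0.18 on the log2 scale (adjusted p = 0.000991), with library 2 again the highest, but it was at most 9.72% of a family that differed by 0.64 ± 0.14 (adjusted p = 0.0201). *Rpl5* had own counts of 12.4, 11.4 and 12.1 CPM against 11.1, 18.6 and 8.52 CPM. These overlapped, and the fitted change of 0.09 ± 0.25 (adjusted p = 0.82) became -0.28 without library 2 of the mutant group. Its transcribed pseudogene *Gm15500* held 633, 525 and 609 CPM against 898, 1122 and 970 CPM, and the family was higher by 0.75 ± 0.14 (adjusted p = 0.0118). Summed over sequence, both carriers of 5S rRNA were thus called higher.

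Among the genes near the catalytic center, *Rpl10* completes the subunit in the cytoplasm. Its own count was 8.23, 7.69 and 8.71 CPM in controls and 13.1, 24.9 and 12.5 CPM in mutant libraries. This passed the test (1.04 ± 0.26, adjusted p = 0.0274), but it was at most 3.65% of the family's counts in any library. *Rpl10-ps1* was 133, 114 and 119 CPM in controls and 1.2, 1.7 and 2.3 CPM in mutant libraries, while *Rpl10-ps3*, annotated as protein coding, was 492, 435 and 451 CPM against 633, 654 and 668 CPM. One copy was far lower and another higher, and the family differed by 0.19 ± 0.11 (adjusted p = 0.256). *Rpl8*, which binds rRNA at the catalytic center, shared no stretch with another gene. It was 591, 471 and 500 CPM against 638, 677 and 637 CPM, with no overlap, and its change of 0.32 ± 0.13 did not pass the test (adjusted p = 0.1).

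At the exit tunnel, *Rpl22*, known for a role in T cell development, shared almost no sequence. It was 146, 119 and 131 CPM in controls and 136, 155 and 153 CPM in mutant libraries. The groups overlapped and the change was 0.16 ± 0.11 (adjusted p = 0.33). *Rpl35*, which binds targeting factors at the exit, was 69.6, 57.4 and 63.8 CPM against 110, 130 and 121 CPM. It was higher in own counts (0.92 ± 0.11, adjusted p = 0.00189) and with its copies (0.66 ± 0.13, adjusted p = 0.0136). *Rpl39*, a very short protein in the tunnel wall, was 134, 105 and 108 CPM against 92.4, 107 and 90.4 CPM. Its own count was -0.26 ± 0.13 lower without passing the test (adjusted p = 0.162), and the family was level at 0.04 ± 0.13 (adjusted p = 0.835), while *Rpl39-ps* was higher by 2.03 (adjusted p = 0.000241) and *Gm12013* fell by 0.99 (adjusted p = 0.0024).

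At the subunit interface, *Rpl41*, the shortest of the proteins, was 648, 500 and 542 CPM in controls and 571, 779 and 642 CPM in mutant libraries. These overlapped (0.24 ± 0.16, adjusted p = 0.302). *Gm10076*, which holds the whole *Rpl41* coding sequence printed above, was 70.3, 53.4 and 57.4 CPM against 461, 672 and 561 CPM, higher by 3.23 (adjusted p = 4.08e-05). The share of the pair in *Rpl41* itself was 90.2% to 90.4% in controls and 53.4% to 55.3% in mutant libraries, and their sum was higher by 0.98 ± 0.17 (adjusted p = 0.00897). *Rpl23* lay lower in own counts by 0.40 on the log2 scale (adjusted p = 0.0201) and higher by 0.40 with *Gm9794* (adjusted p = 0.0372).

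*Rpl32*, a solvent-side protein, allowed a reading with little copy sequence, since 7.85% of its coding stretches were found elsewhere. It was 305, 241 and 264 CPM in controls and 424, 507 and 441 CPM in mutant libraries. The groups were apart and the change was 0.76 ± 0.13 (adjusted p = 0.00915), and 0.79 ± 0.13 with *Rpl32l* (adjusted p = 0.0084). The members with the smallest percent of coding stretches found elsewhere were *Rpl8*, *Rpl32*, *Rpl22* and *Rpl4* (0.34 ± 0.12 in own counts, adjusted p = 0.0705). All of these had fitted changes above 0, of which that of *Rpl32* passed the test. By percent of the whole mRNA, *Rpl39* (7.62%) shared less than *Rpl4* (8.47%), and its own count was at -0.26 without passing the test.

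The other members called higher with all genes sharing sequence were *Rpl9* (0.76 ± 0.16), *Rpl13a* (0.65 ± 0.15), *Rpl19* (0.54 ± 0.13) and *Rpl23a* (0.68 ± 0.12), with adjusted p-values of 0.0161, 0.0252, 0.0245 and 0.00944. The own counts of *Rpl9* and *Rpl23a* were low, at most 8.10 and 1.51 CPM in any library, beside families of 371 to 816 CPM and 400 to 704 CPM. The remaining members named nowhere above with a family value (*Rpl3*, *Rpl6*, *Rpl7*, *Rpl7a*, *Rpl10a*, *Rpl13*, *Rpl14*, *Rpl15*, *Rpl18*, *Rpl21*, *Rpl24*, *Rpl27*, *Rpl28*, *Rpl34* and *Rpl35a*) had values of -0.16 to 0.37, none of which passed the test. *Rpl13* and *Rpl13a* overlap the protein-coding genes *Gm20388* and *Gm45713* on the same strand, and others overlap genes on the opposite strand. As the use of strand in counting is not given, reads of such pairs cannot be told apart.

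A single library stood apart in the own counts of several members, and in 7 of the 45 (*Rpl5*, *Rpl10a*, *Rpl14*, *Rpl18*, *Rpl19*, *Rpl26* and *Rpl30*), none of them called, the fitted change turned its sign without 1 library. *Rpl10a* was 39.6, 29.4 and 32.5 CPM in controls and 33.0, 58.6 and 32.0 CPM in mutant libraries, and its change of 0.28 became -0.048 without library 2 of the mutant group. *Rpl26*, at the tunnel exit, was 108, 95.5 and 91.2 CPM in controls and 55.7, 158 and 63.3 CPM in mutant libraries, so that library 2 lay above and the others below all controls. *Rpl30*, whose yeast counterpart binds its own transcript, was 60.9, 34.2 and 33.4 CPM against 35.1, 38.6 and 35.5 CPM, with control library 1 the highest. *Rpl29*, whose loss leaves mice small, was 107, 158 and 166 CPM against 176, 167 and 159 CPM, with control library 1 the lowest. In that library the pseudogenes *Gm13841* and *Gm8210* both stood at 30.0 CPM, against at most 0.5 CPM in the other libraries. Control library 1 is also the only control with WW in its label, and whether the label relates to these values was not tested. With all genes sharing sequence, the changes were 0.08 ± 0.11 (*Rpl26*), -0.14 ± 0.11 (*Rpl30*) and -0.16 ± 0.10 (*Rpl29*), and none passed the test (adjusted p = 0.617, 0.404 and 0.269). Leaving out control library 1 and mutant library 2 together, 32 members were called higher and none lower with all genes sharing sequence, 19 of which were also called with all 6 libraries, and 23.1% of all genes were called in either direction.

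Summed over the 45 members, own counts made up 0.65% to 0.78% of the scaled library in controls and 0.87% to 1.0% in mutant libraries, means of 0.705% and 0.923% (ratio 1.31). With named copies the means were 1.20% and 1.56% (ratio 1.30), and with all genes sharing sequence 1.77% and 2.43% (ratio 1.37). The groups did not overlap at any of the 3 levels.

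**Figure D4:**
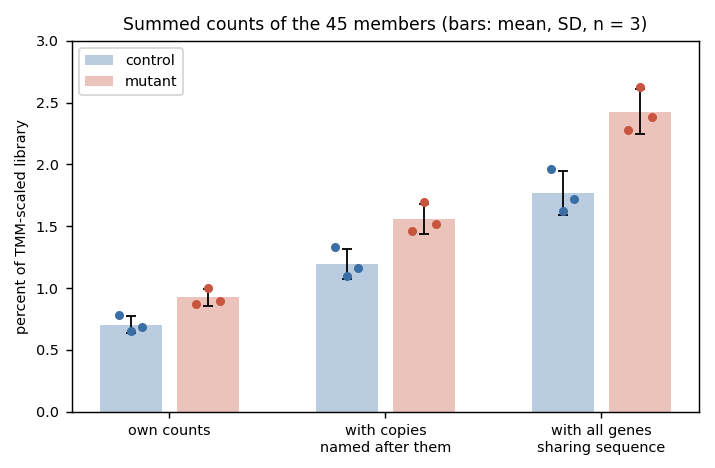
Summed counts of the 45 members as percent of the TMM-scaled library (vertical axis, from 0) at 3 levels of counting, blue for control and red for mutant (bars, mean; error bars, SD; points, 3 libraries each). At each level the red points lie above the blue ones, with ratios of means of 1.31, 1.30 and 1.37.

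The members are short and mostly GC-rich, and genes of that kind were shifted as a class. With all genes tested in 5 equal bins, from the shortest to the longest by exon length, the median log2 fold change ran 0.19, 0.13, 0.03, -0.05 and -0.19, and 16, 20 and 9 members fell in the first 3 bins. From the lowest to the highest bin of GC content it ran -0.28, -0.13, 0.01, 0.13 and 0.22, with 2, 8, 11, 15 and 9 members. With these trends over length and GC taken out of the fit, the median log2 fold change of the members with all genes sharing sequence fell from 0.36 to 0.15, and 10 were called higher (*Rpl5*, *Rpl9*, *Rpl11*, *Rpl17*, *Rpl23a*, *Rpl32*, *Rpl36a*, *Rpl41*, *Rplp1* and *Rplp2*) and 2 lower (*Rpl29* and *Rpl36*), where 13.4% of all genes were called in either direction. The stalk pair and both 5S RNA carriers thus stayed called, and *Rpl38* went to -0.030.

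**Figure D5:**
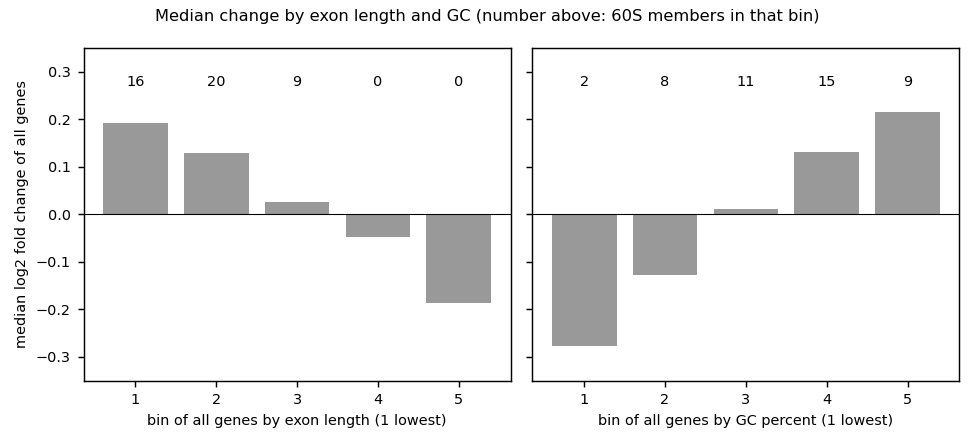
Median log2 fold change of all genes tested (vertical axis) in 5 bins by exon length (left) and GC content (right), with the number of 60S members in each bin printed above the bars. The medians fall from 0.19 to -0.19 with length and rise from -0.28 to 0.22 with GC content, and 16 and 20 of the 45 members are in the 2 bins of the shortest genes.

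Other genes of the translation machinery were compared by their own counts. Of 33 genes of the small (40S) subunit, 20 were higher and 4 lower, with a median log2 fold change of 0.60, against 10.4% and 9.84% of all genes. The smallest p-values were those of *Rps7* (8.21, 7.82 and 6.21 against 150, 178 and 175 CPM, 4.50 ± 0.15), *Rps29* (2.04 ± 0.13) and *Rps16* (1.79 ± 0.12), with adjusted p-values of 2.03e-06, 8.12e-05 and 0.000109. Among paralogs of the 60S proteins, *Rpl36al* was higher by 0.38 ± 0.11 (adjusted p = 0.0429), and *Rpl22l1* and *Rpl39l*, paralogs of *Rpl22* and *Rpl39*, were not called (0.09 ± 0.12 and 0.02 ± 0.24, adjusted p = 0.606 and 0.965).

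Among genes for making the subunit and its rRNAs, the shares called were near or under that of all genes, a difference that was not tested. Of 40 genes for 60S assembly, 5 were higher and none lower (12.5% called, median 0.09), where 20.2% of all genes were called in either direction. They were led by *Ddx27*, *Eif6* and *Pes1*, factors of nucleolar or cytoplasmic maturation, at 0.44 ± 0.10, 0.43 ± 0.10 and 0.43 ± 0.10 (adjusted p = 0.0186, 0.0218 and 0.0271). Of 29 genes of RNA polymerases I and III, which make the rRNAs, 4 were higher and 1 lower (17.2% called, median 0.13), with *Taf1c* at 0.60 ± 0.15, *Polr3k* at -0.53 ± 0.14 and *Gtf3c2* at 0.33 ± 0.09 (adjusted p = 0.0273, 0.0299 and 0.0331). Of 16 genes for elongation factors and other mRNAs with a pyrimidine start, 5 were higher and none lower (31.2% called, median 0.17). *Naca*, a chaperone for new chains, was 55.5, 46.2 and 47.9 CPM against 121, 142 and 136 CPM (1.42 ± 0.11, adjusted p = 0.00021), and *Eif3f* and *Eif3h* were at 0.54 ± 0.10 and 0.60 ± 0.12 (adjusted p = 0.0131 for both). Without control library 2 or 3, 11 and 9 of the 40S genes and none of the assembly or polymerase genes were called, when 4.57% and 4.39% of all genes were.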

How the data were processed

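RNA-seq counts of 3 control and 3 mutant libraries were analyzed. The authors deposited estimated counts per gene, many of them not whole, without normalization. The paper's methods name single-end reads of 75 cycles, TopHat and the mm10 genome, whereas the submitters' processing notes name STAR 2.6.1d, Partek and mm10. The annotation, the use of strand and the treatment of reads that fit several genes are not given in the sources used here. The authors also deposited a normalized signal for 22061 genes, which equals the estimated count plus 1 times a single factor per library (to within 0.000822%) and is not divided by gene length. It served only as an alternative. The count table holds 6 further sample columns, which were not used.

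Counts were rounded, because the planned test assumed whole counts, and compared with edgeR 4.0.16 (R 4.3.3; TMM scaling, filterByExpr, quasi-likelihood test without a block, p-values adjusted after Benjamini and Hochberg over all genes tested). The whole table was fitted 3 times, with own counts, with the copies named after a member added to it, and with all genes sharing at least 20 stretches of 75 bases of GENCODE M21 transcripts added. Copies are named where they hold much of a family's counts. Gene positions are those of M21 on mm10, where a gene of the same symbol overlapped the deposited position for all 27506 genes. Totals of 56134770 to 62628940 counts, if taken as reads, leave little counting error for most members. The spread between libraries (biological coefficient of variation 18.7%) limits the tests. Together these totals exceed the number of reads given in the paper's methods, and the sources used here do not say why. A recovery test on simulated counts preceded the fits.

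The members and lists were chosen with earlier results of these data known. Values in every library are given for the 4 largest rises and falls in own counts, the 4 largest and 2 smallest changes with named copies, and *Rplp0*, *Rplp1*, *Rplp2*, *Rpl5*, *Rpl10*, *Rpl11*, *Rpl22*, *Rpl38*, *Rpl39* and *Rpl41*, and of each translation list the 3 genes with the smallest p and 3 paralogs are named. The values of 1 paralog are not reported here. *Rpl8*, *Rpl26*, *Rpl29*, *Rpl30*, *Rpl32*, all copies, and the members listed with a family value were named after their values were seen. Alternatives were DESeq2 1.42.0, edgeR's likelihood ratio test, limma 3.58.1 (voom with quality weights, and limma-trend on the normalized signal with pseudocounts of 1 and 0.1), other scaling and filters, an offset for exon length and GC content, a block by replicate number, and fits without each library in turn. The sum with all genes sharing sequence was planned as an alternative to that with named copies. Its own alternatives, and leaving out control library 1 with mutant library 2, were chosen after seeing the data.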

Additional observations from a re-analysis of the deposited data

How the results depend on the processing

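In own counts, 20 members were higher and 6 lower, and 16 to 24 and 3 to 8 were so under every alternative other than leaving out a single library. Under those alternatives 10.4% to 32.8% of all genes were called in either direction. Leaving out each library in turn gave 11 to 18 higher and 3 to 8 lower in own counts, 5 to 17 higher and 3 to 5 lower with named copies, and 1 to 19 higher and 0 lower with all genes sharing sequence. For the other lists it gave 9 to 23 called 40S genes, 1 to 2 paralogs, 0 to 10 assembly genes, 0 to 6 polymerase genes and 1 to 6 elongation and pyrimidine-start genes. Each fit without a library has 3 residual degrees of freedom in place of 4.

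The replicate numbers, the sample index in the labels, appear in both groups. Deviations of same-numbered libraries from their group means had correlations of -0.10, -0.08 and -0.0038. The sources do not say whether same-numbered libraries share anything beyond the number. These correlations, over deviations from means of 3 libraries, cannot decide it. With the replicate block, own counts gave 16 higher and 3 lower members, when 10.4% of all genes were called in either direction. Named copies gave 9 higher. All genes sharing sequence gave 8 higher and 0 lower, when 9.95% of all genes were called. The lists gave 15 (40S), 1 (paralogs), 0 (assembly), 1 (polymerases) and 3 (elongation and pyrimidine start).

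With the length and GC offset, 11 members were higher with named copies, and with all genes sharing sequence 10 were higher and 2 lower. The lists then gave 1 paralog, 3 assembly genes and 2 polymerase genes. Of all genes, 14.0% were called in own counts and 13.4% with all genes sharing sequence. It also turned *Rpl41* to -0.070 (own count) and -0.069 (named copies), *Rpl38* to -0.022 (named copies) and -0.030 (all genes sharing sequence) and *Rpl39* to -0.067 (all genes sharing sequence). The medians of the members fell to 0.13, 0.12 and 0.15 at the 3 levels.

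Without control library 1 and mutant library 2 together, 26 members were higher with named copies, 32 with all genes sharing sequence, and 8 elongation and pyrimidine-start genes were called. Of all genes, 23.6% were called in own counts and 23.1% with all genes sharing sequence. *Rpl5* was then -0.24 (own count) and -0.21 (named copies). Without single libraries it ran from -0.28 to 0.31 (own count) and from -0.24 to 0.33 (named copies), lowest without mutant library 2, and with voom it was -0.11 and -0.077.

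Adding all genes sharing sequence in place of named copies left 0 members lower and turned *Rpl27a* to 0.51, *Rpl37* to 0.47 and *Rpl39* to 0.041. *Rpl39* with all genes sharing sequence was -0.035 without control library 2, -0.0150 without control library 3, -0.0116 without mutant library 2, and -0.042 when genes sharing a single stretch were added. Without an adjusted p under 0.05 at any level, *Rpl39* has no direction here.

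DESeq2 called 9 assembly and 8 elongation and pyrimidine-start genes, the likelihood ratio test 9 assembly genes, and voom 11, 10 and 8 assembly, elongation and polymerase genes. Scaling by library size gave 1 paralog and 3 polymerase genes, no filter 1 paralog, and the normalized table with a pseudocount of 1 gave 3 polymerase genes. The cause of these differences was not tested.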

Other observations

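Some copies of the 60S genes were counted almost wholly in 1 group. *Rpl10-ps1*, a transcribed pseudogene on chromosome 2, was 133, 114 and 119 CPM in controls and 1.2, 1.7 and 2.3 CPM in mutant libraries (log2 fold change -6.12, adjusted p = 4.87e-06 from edgeR). *Gm6344*, which shares sequence with *Rpl29*, was 9.5, 30.4 and 30.8 CPM against 0.1, 0.2 and 0.2 CPM (-7.24, adjusted p = 0.000334). In the other direction, *Rpl30-ps9* on chromosome X was 5.4, 7.3 and 6.2 CPM against 52.4, 51.7 and 46.6 CPM (2.99, adjusted p = 1.35e-05), while *Gm12191*, another copy of *Rpl30*, was at -0.71 (adjusted p = 0.00293). *Rpl3-ps2* was 1.6, 0.9 and 1.2 CPM against 24.1, 13.7 and 19.6 CPM (3.95, adjusted p = 0.000116), and the much more abundant *Rpl3-ps1* did not pass the test (-0.10, adjusted p = 0.624). These copies were chosen after their values were seen, and the cause of the switches was not tested.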
